A study of Homo sapiens with 12 samples.

Results

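The 2 hairpins compared here, KD1 and KD2, target the same transcript, METTL14, and were expressed in embryoid bodies of 2 human embryonic stem cell lines. The comparison rests on 7 of the 12 libraries of the series: 2 libraries of MEL1 with KD1, 1 of MEL1 with KD2, 2 of H1 with KD1 and 2 of H1 with KD2. They were chosen by the cell line and treatment that the labels give. The 3 libraries with the scrambled control hairpin (SCR; 2 in H1, 1 in MEL1) and the 2 H1 libraries with the other hairpin, KD3, entered no test and are given as reference levels. Both are long-established lines of embryonic stem cells, and an embryoid body is the aggregate that such cells form when they differentiate in suspension. Every group, SCR included, carried a doxycycline-inducible hairpin in a lentiviral vector and had been selected with puromycin. The aggregates were seeded at 500 cells per microwell and harvested on day 10 after culture in doxycycline at 2 µg/ml. All groups therefore share the vector, the selection and the doxycycline, and each line and hairpin is a transduced population whose vector insertion sites are not described in the labels. The MEL1 KD2 group is 1 library, and the labels do not say whether libraries of 1 group came from separate cultures, so that p-values measure only the spread between these libraries.

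METTL14 binds METTL3 in the complex that places N6-methyladenosine (m6A) on messenger RNA, a mark that reader proteins recognise and that can shorten the life of a transcript. A short hairpin RNA is cut into a small guide that an Argonaute protein uses to find and silence matching transcripts. Hairpins to different stretches of one transcript are used side by side because changes shared by them can come from loss of the target, whereas a guide can also act on other transcripts that match its seed.

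The totals of the 7 libraries were 39552685 to 43508287 estimated counts, and after a filter on low counts 21253 genes were tested. Levels are CPM, counts scaled to a common library total, and differences are log2 fold changes of KD1 minus KD2, so that a negative value means lower with KD1. Levels of different genes are not comparable, because CPM is not corrected for gene length. The markers of neural progenitors and of pluripotent cells were detected in all 7 libraries (the 5 markers of each summed to 757.1 to 1584.7 CPM and to 1140.7 to 3839.3 CPM). Single markers were uneven between the lines. PAX6 was at 0.774 and 0.443 CPM with KD1 and 2.91 CPM with KD2 in MEL1, against 166.3 to 224.7 CPM in H1. In H1 NANOG was at 1.51 to 4.08 CPM and POU5F1 at 21.8 to 36 CPM, beside LIN28A at 926.7 to 1134.9 CPM. In bulk RNA, fewer cells of a type and less RNA per cell cannot be told apart, and this holds for each marker gene below.

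The target itself was examined first. METTL14 (ENSG00000145388, chromosome 4 at 118685368 to 118715433, plus strand, GENCODE 29 on GRCh38) measured 8.10 and 6.11 CPM in the MEL1 KD1 libraries and 8.90 CPM in the MEL1 KD2 library. In H1 it measured 11.1 and 11.2 CPM with KD1 and 17.3 and 14.7 CPM with KD2. Every KD1 library was below every KD2 library of its line, and all 7 were below the SCR libraries, which held 51.5 CPM in MEL1 and 30.3 and 43.5 CPM in H1. The log2 fold change between the hairpins was -0.45 (SE 0.15), which did not pass the test (unadjusted p = 0.0172, adjusted p = 0.134 in edgeR's quasi-likelihood test). After removal of each library's trend with transcript GC content and length the value was -0.19 (adjusted p = 0.421). A lower METTL14 level with KD1 was thus the direction in both lines, at a size that these libraries did not separate from zero.

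**Figure D1:**
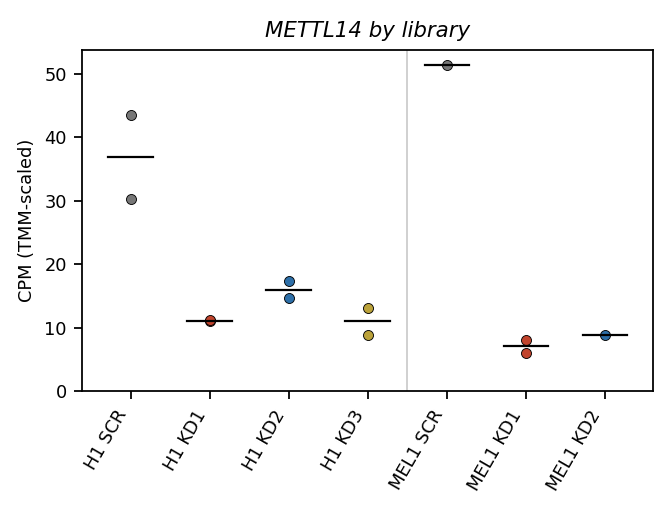
METTL14 level in each of the 12 libraries (y axis, CPM, from 0) by line and hairpin (x axis); points are libraries and bars are group means. The 7 KD1 and KD2 libraries lie between 6.11 and 17.3 CPM, below all SCR libraries.

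Over both lines and in H1, no gene of the m6A machinery and none of the machinery that processes hairpins was called. Of 24 m6A writers, readers and erasers tested, 0 were called over both lines in either direction, with 12 positive and 12 negative values and a median of -0.01 beside 0.0041 over all genes. METTL3, the catalytic partner of METTL14, measured 85.2 and 86.9 CPM with KD1 and 65.0 CPM with KD2 in MEL1, and 69.6 and 66.5 against 76.0 and 72.2 CPM in H1. It was higher with KD1 in MEL1 and lower in H1, and its value over both lines was 0.08 (SE 0.13, adjusted p = 0.74). Of 14 genes of the small RNA machinery, 0 were called and the median was -0.10. Among these are AGO2, the Argonaute with slicing activity, at -0.19 (SE 0.13, adjusted p = 0.392), and DICER1, which cuts the hairpin loop from its stem, at -0.45 (SE 0.19, adjusted p = 0.201). In MEL1, where 11.5% of all genes were called and 5.79% were called lower, 1 gene of each list was called, both lower with KD1. These were the m6A eraser FTO (-0.51, adjusted p = 0.0412) and the Argonaute AGO4 (-0.80, adjusted p = 0.0213). With the GC and length trend removed, the m6A list in MEL1 had 2 called higher and 0 lower. The small RNA list then had 0 higher and 1 lower.

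Over both lines 648 genes were called at an adjusted p under 0.05, which is 3.05% of the genes tested: 318 were higher with KD1 (1.5%) and 330 were lower (1.55%). At an unadjusted p under 0.05 there were 4822. The called differences had a median size of 0.95 on the log2 scale (1.93-fold), and 292 exceeded 1. In 647 of the 648, no KD1 library overlapped a KD2 library of the same line, on the same side in both lines; over all genes tested, 15.1% lay wholly below and 14.8% wholly above in this way. Protein-coding genes were 597 of the 648. The call was sensitive to single libraries: leaving out 1 library at a time gave 53 to 572 calls, with 53 without the first H1 KD1 library, 92 without the first H1 KD2 library, 95 without the second H1 KD1 library, 140 without the first MEL1 KD1 library, 304 without the second MEL1 KD1 library and 353 without the MEL1 KD2 library. In all 7 of these fits 46 genes were called, 38 lower and 8 higher with KD1.

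Base composition moved with the hairpin. The transcripts of genes called higher with KD1 had a median GC content of 59.1% and a median length of 2680.5 bases, and those of genes called lower had 43.9% and 4400.0 bases, against 48.6% and 3525.0 bases over 15627 genes of at least 1 CPM. Each library was set against the mean of its line, and the rank correlation of that difference with GC content across those genes was 0.05 and 0.27 in MEL1 KD1, -0.25 in MEL1 KD2, 0.17 and 0.52 in H1 KD1, and -0.38 and -0.23 in H1 KD2. It was positive in every KD1 and negative in every KD2 library. Each mean is that of the compared libraries of the line, so opposite signs within a line are in part built in. The same correlation with length was 0.0771 and -0.475 in MEL1 KD1 and 0.341 in MEL1 KD2. In H1 it was -0.159 and -0.0945 with KD1 and 0.212 and -0.0606 with KD2. With the trend on GC content and length removed, all 648 genes kept their direction and 416 kept their call, 190 of those higher and 226 of those lower with KD1. The part of base composition in the remaining calls was not tested.

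The 2 lines gave partly the same differences from separate libraries. The H1 contrast of the fit to all 7 libraries had 383 calls (1.8%), 155 higher (0.729%) and 228 lower (1.07%) with KD1. A fit to the 4 H1 libraries by themselves called 800 genes, 357 higher and 443 lower. Of these 383 genes, 302 (78.9%) had the same direction in MEL1, beside 60.1% of all genes tested. With the GC and length trend removed, the H1 contrast called 508 genes. Of those, 387 (76.2%) had the same direction in MEL1, beside 58.3% of all genes tested. In MEL1, 169 of the 383 were called in the same direction and 24 in the opposite one. The genes lower with KD1 in H1 had the same direction in MEL1 in 187 of 228 cases (82%), and those higher with KD1 in 115 of 155 (74.2%). The MEL1 contrast, in which the single KD2 library is assumed to vary like the other groups, had 2447 calls (11.5%), 1217 higher (5.73%) and 1230 lower (5.79%). Across all genes the log2 fold changes of the lines had a Pearson correlation of 0.198 and a rank correlation of 0.277, a description over genes, which are not independent.

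The distance between hairpins was larger than that between libraries of one hairpin. Over 16794 genes of at least 1 CPM, the root mean square log2 difference was 0.399 to 0.432 between libraries of the same hairpin in H1 and 0.495 in MEL1. Between KD1 and KD2 libraries it was 0.493 to 0.627 in H1 and 0.671 to 0.793 in MEL1. Between the lines it was 1.28 to 1.46, so that the hairpin was the smaller of the 2 differences among these libraries.

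**Figure D2:**
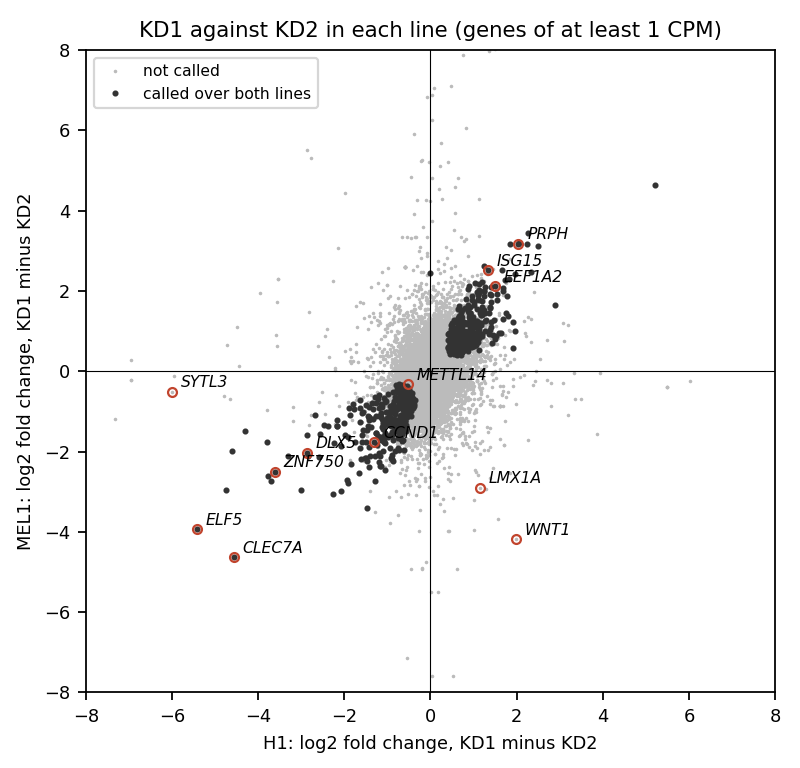
Log2 fold change of KD1 minus KD2 in H1 (x axis) and in MEL1 (y axis) for 16794 genes of at least 1 CPM, 18 of which lie outside the axes; dark points are the genes called over both lines. CLEC7A and ELF5 lie far down in both lines, PRPH and ISG15 up in both, and WNT1 and LMX1A have opposite signs in the 2 lines.

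The largest fall with KD1 was in a receptor of myeloid cells. CLEC7A (ENSG00000172243, chromosome 12 at 10116777 to 10130258), which encodes the beta-glucan receptor dectin-1, measured 0.387 and 0.236 CPM with KD1 and 7.87 CPM with KD2 in MEL1. Its H1 levels were 0.127 and 0.0715 CPM with KD1 and 3.08 and 1.72 CPM with KD2. KD1 libraries were near the bottom of the range and KD2 libraries above SCR, which held 3.87 CPM in MEL1 and 1.09 and 0.96 CPM in H1. The log2 fold change was -4.60 (SE 0.35, adjusted p = 0.00197). ELF5 (ENSG00000135374, chromosome 11 at 34478793 to 34513805), a transcription factor of trophoblast stem cells and glandular epithelium, measured 0.31 and 0.325 CPM against 4.90 CPM in MEL1. Its H1 levels were 0.0254 and 0.0476 CPM with KD1 and 1.95 and 1.45 CPM with KD2, around SCR levels of 0.365 and 0.264 CPM. KD1 lay below SCR and KD2 above it in both lines, and the log2 fold change was -4.53 (SE 0.40, adjusted p = 0.002). CLEC7A and ELF5 were called in each of the 7 fits that left out a library.

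Other genes among the 10 largest falls were MUC15, a membrane mucin, at -3.76 (adjusted p = 0.0145), ERP27, a chaperone-like protein of the endoplasmic reticulum, at -3.23 (0.00581), and ARHGEF38, a guanine nucleotide exchange factor, at -3.13 (0.0253). ZNF750, a transcription factor of epidermal differentiation, measured 4.15 and 3.51 CPM with KD1 against 21.8 CPM with KD2 in MEL1. H1 libraries held 0.406 and 0.429 CPM against 5.90 and 4.37 CPM, a several-fold gap in each line (log2 fold change -3.09, SE 0.27, adjusted p = 0.002). ATP13A4, a P-type ATPase, fell by 2.98 on the log2 scale (adjusted p = 0.00848). HAPLN1, which links hyaluronan to proteoglycans, measured 107 and 84.3 against 327 CPM in MEL1 and 2.64 and 2.55 against 42.1 and 29.6 CPM in H1. Its fall of 2.95 over both lines (adjusted p = 0.031) was larger in H1, where it was -3.79, than in MEL1, where it was -1.77 (adjusted p of the difference 0.0146). HSPD1P6, a pseudogene of the chaperonin HSPD1 and so of uncertain count, fell by 3.14 (adjusted p = 0.0485) and lost its call with the GC and length trend removed (0.0541). Of the 7 fits that left out a library, ERP27 and ZNF750 were called in 7, ATP13A4 in 6 and MUC15 in 5. ARHGEF38 and HAPLN1 were called in 2, and HSPD1P6 in 1.

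A few transcription factors of surface ectoderm fell with KD1, while most genes of that list did not pass the test. Of 14 list members tested 3 were called, all lower, beside 1.55% of all genes, and the list median was -0.10. In MEL1 3 members were called lower and 3 higher, beside 5.79% and 5.73% of all genes. The 3 higher were the adhesion molecule EPCAM (0.85, adjusted p = 0.0221), the claudin CLDN7 (1.31, 0.00265) and the splicing factor ESRP1 (0.84, 0.0156). Over both lines EPCAM was at 0.53 (0.0933), CLDN7 at 0.78 (0.0723), ESRP1 at 0.41 (0.181) and the keratin KRT17 at 1.17 (0.0848). DLX5, a homeobox gene of the neural plate border and placodes, measured 4.15 and 4.61 against 17.9 CPM in MEL1 and 0.913 and 1.19 against 8.39 and 7.01 CPM in H1 (log2 fold change -2.51, SE 0.23, adjusted p = 0.002). GRHL3, a grainyhead factor needed for epidermal barrier formation, measured 33.1 and 30.0 against 133 CPM in MEL1 and 39.0 and 46.7 against 76.0 and 83.2 CPM in H1. It was lower with KD1 in both lines (-1.39, SE 0.23, adjusted p = 0.0258), and more so in MEL1 (adjusted p of the difference 0.0196). GRHL2, its relative in simple epithelia, was at -1.25 (adjusted p = 0.0412, and 0.0669 with the GC and length trend removed). Leaving out 1 library gave 1 to 3 calls in this list, with 1 without either MEL1 KD1 library or the first H1 KD1 library, and the fit by group means called 8, 4 higher and 4 lower. The list of trophoblast genes, which shares its upper members with epithelia in general, had 3 of 9 called, all lower: ELF5, VGLL1 and SLC40A1. VGLL1, a cofactor of TEAD factors, measured 4.62 and 3.13 against 11 CPM in MEL1 and 0.203 and 0.143 against 3.46 and 3.52 CPM in H1 (-2.94, SE 0.55, adjusted p = 0.0349), a larger gap in H1 (adjusted p of the difference 0.0232). SLC40A1, the iron exporter ferroportin, was at 0 in both H1 KD1 libraries and at 0.357 and 0.368 CPM in H1 KD2. Calls in this list ranged from 1 to 3 without 1 library, with 1 without the second MEL1 KD1 library, without either H1 KD1 library or without the first H1 KD2 library.

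Further genes known from epithelia were also called lower; they were chosen after their values were seen. MIR205HG (ENSG00000230937, chromosome 1 at 209428820 to 209432838), the host transcript of the epithelial microRNA miR-205, measured 15.8 and 17.3 against 71.8 CPM in MEL1. In H1 it measured 1.55 and 1.10 CPM with KD1 and 10.3 and 8.59 CPM with KD2. It was several-fold lower with KD1 in both lines (-2.51, SE 0.19, adjusted p = 0.00197). DLX3, a homeobox regulator of epidermis and placenta, measured 6.01 and 5.31 against 44.6 CPM in MEL1 and 1.37 and 1.81 against 6.97 and 6.55 CPM in H1 (-2.49, SE 0.21, adjusted p = 0.00197). TP73, the p53 relative active in multiciliated and stem cells of epithelia, was at -1.94 (adjusted p = 0.00707), and SFN, the epithelial 14-3-3 protein stratifin, at -1.53 (0.00623). The chemokine CXCL14 had -1.75 in H1 and -1.75 in MEL1 (adjusted p over both lines 0.00197). EGFR, the epidermal growth factor receptor, was at -1.35 (adjusted p = 0.00743).

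The defining markers of keratinocytes were near absent. KRT5, KRT14 and TP63 were under 1 CPM in all 7 libraries, and so was CGA of the trophoblast markers. The summed level of the 5 surface ectoderm markers, which is mostly KRT18 and EPCAM, was 503.5 and 608.2 CPM with KD1 against 450.2 with KD2 in MEL1, and 289.9 and 293.7 against 258.4 and 342.7 in H1. That sum was higher with KD1 in MEL1 and overlapped in H1. The sum of the 5 trophoblast markers was 82.0 and 68.8 against 191.2 CPM in MEL1 and 21.2 and 24.9 against 22.3 and 24.6 CPM in H1, so it was lower with KD1 in MEL1 and overlapped in H1. It is mostly TFAP2A, also a neural crest gene (57.9 and 47.4 against 159.5 CPM in MEL1), and KRT7 had the other order there, with 9.73 and 10.3 against 5.68 CPM. The part of a change in cell types was not tested.

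The place of SCR was counted over 19 of the genes called lower, not all of them known from epithelia. They were the largest falls other than HSPD1P6 and the called members of the surface ectoderm and trophoblast lists. MIR205HG, DLX3, TP73, SFN, CXCL14 and EGFR made up the rest. Of the 19, every KD1 library was below every SCR library for 15 in H1 and 18 in MEL1. Every KD2 library was above every SCR library for 18 in H1 and 18 in MEL1. Over the 330 genes called lower the same counts were 240 and 175 in H1 and 274 and 267 in MEL1, and over all genes tested KD1 lay below SCR for 30.4% and 38.9% and KD2 above it for 22.1% and 53.2% in H1 and MEL1. The exceptions among the 19 included SFN in MEL1, which measured 18.2 and 18.2 CPM with KD1, 38.7 CPM with KD2 and 7.73 CPM with SCR. In H1, KD3 libraries lay near SCR for ELF5 (0.429 and 0.363 CPM) and ZNF750 (0.965 and 0.75 CPM). They were below both SCR libraries for CLEC7A (0.536 and 0.484 against 1.09 and 0.96 CPM). The same held for DLX5 (2.3 and 1.5 against 3.46 and 2.93 CPM) and SFN (2.06 and 1.21 against 3.49 and 3.05 CPM). For GRHL2 they were above both (6.94 and 4.28 against 3.44 and 4.06 CPM), and the place of KD3 was not counted over the 19. These genes were picked for differing between KD1 and KD2, so their place beside SCR and KD3 is a description.

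**Figure D3:**
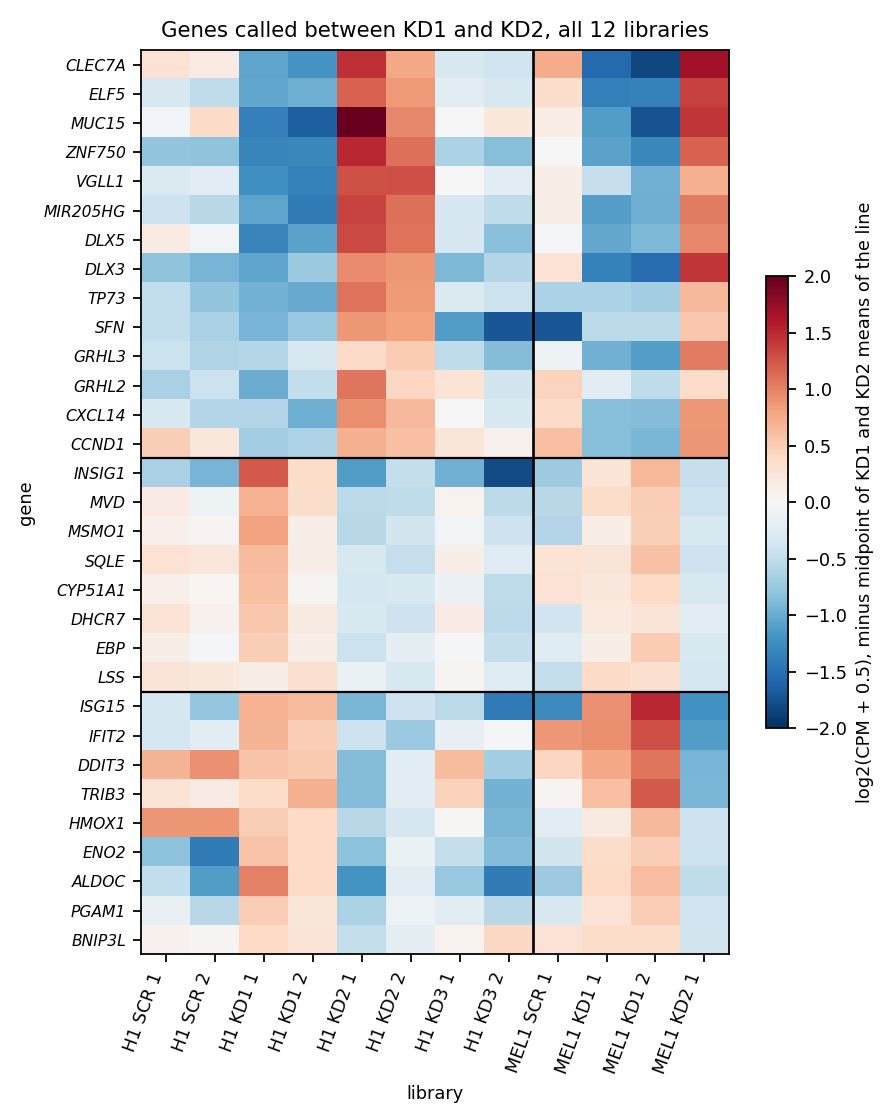
Level of 31 genes called between KD1 and KD2 (rows) in all 12 libraries (columns), as log2(CPM + 0.5) minus the midpoint of the KD1 and KD2 means of the line; red is higher and colours end at 2 and -2. The upper block (epithelial genes, CLEC7A and CCND1) is blue in KD1 and red in KD2 in both lines. The middle block (cholesterol genes) and lower block (stress, interferon and glycolysis genes) have the reverse order.

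The 38 falls that were called whichever library was left out also included regulators, and some had higher counts. CCND1 (ENSG00000110092, chromosome 11 at 69641087 to 69654474), the G1 cyclin D1, measured 135 and 128 CPM with KD1 and 449 CPM with KD2 in MEL1. H1 libraries held 78.5 and 82.7 CPM against 207 and 193 CPM, with SCR at 178 and 149 CPM. The replicate libraries were close and the groups far apart (log2 fold change -1.50, SE 0.12, adjusted p = 0.00197). EPAS1, the hypoxia-inducible factor HIF-2 alpha, was at -1.76 (SE 0.16, adjusted p = 0.002), while the hypoxia genes described below had positive values over both lines. MEOX1, a homeobox gene of somites, was at -2.04 (SE 0.20, adjusted p = 0.0026). EPAS1 and MEOX1 were at low levels in H1. There EPAS1 measured 1.62 and 1.31 against 4.49 and 4.64 CPM, and MEOX1 measured 1.42 and 1.38 against 5.44 and 4.62 CPM. APMAP, a membrane protein of adipocytes, measured 52.9 and 59.9 against 142.9 CPM in MEL1 and 61.1 and 61.4 against 124.9 and 134.4 CPM in H1, where SCR held 135.1 and 127.0 CPM. AP1AR, an adaptor complex regulator, measured 10.2 and 9.80 against 29 CPM in MEL1 and 9.35 and 8.70 against 24.4 and 19.3 CPM in H1, where SCR held 20.4 and 25.8 CPM. In MEL1 SCR held 102.7 CPM of APMAP, below KD2, and 33.3 CPM of AP1AR, above KD2. KD1 was below SCR for both genes in both lines.

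The largest rises with KD1 were mostly genes of low level. TREML2, a receptor of myeloid cells and lymphocytes, had the largest fitted value (4.79, adjusted p = 0.00689), but this depends on levels of 0.021 and 0 CPM in H1 KD2 against 0.507 and 0.524 CPM in H1 KD1, and of 0.201 CPM against 2.97 and 7.20 CPM in MEL1. PRPH, the intermediate filament peripherin of peripheral neurons, measured 9.80 and 10.4 CPM with KD1 and 1.12 CPM with KD2 in MEL1. The H1 levels were 12.9 and 11.9 CPM against 1.70 and 4.34 CPM, a clear gap in each line (log2 fold change 2.44, SE 0.36, adjusted p = 0.0175). MYH11, the smooth muscle myosin heavy chain, was at 2.53 (adjusted p = 0.0161), ICAM5, an adhesion molecule of forebrain neurons, at 2.29 (0.0161), HSF4, a heat shock factor of the lens, at 2.36 (0.0277) and MISP, an actin-bundling protein of the spindle, at 2.12 (0.0261). ALPG, a germ cell alkaline phosphatase close in sequence to ALPP and so of uncertain count, was at 2.44 (0.0252) and under 0.25 CPM in all 4 H1 libraries compared. LINC02154, a long noncoding RNA, was at 2.53 (0.0331), and ISCA1P1, a processed pseudogene of uncertain count, at 2.72 (0.0364). Most of these calls depended on single libraries. Of the 7 fits that left out a library, TREML2 was called in 7, MYH11 and ICAM5 in 5, PRPH in 4 and HSF4 in 3. ALPG and MISP were called in 2, and LINC02154 and ISCA1P1 in 1.

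Of the 8 rises called whichever library was left out, EEF1A2, the translation elongation factor of neurons and muscle, measured 59.4 and 69.2 CPM against 14.8 CPM in MEL1 and 54.4 and 56.4 against 15.4 and 24.0 CPM in H1 (1.73, SE 0.20, adjusted p = 0.0055). Its SCR levels of 20.7 CPM in MEL1 and 18.0 and 15.4 CPM in H1 were near those of KD2. FABP3, the heart fatty acid binding protein, measured 33.0 and 43.5 against 7.78 CPM in MEL1 and 14.0 and 9.55 against 2.52 and 4.14 CPM in H1 (2.02, SE 0.24, adjusted p = 0.00644). NMRK2, a muscle nicotinamide riboside kinase, was at 1.60 (adjusted p = 0.0055). MVD, of the cholesterol list described next, was another.

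Genes of the cholesterol list rose with KD1 in 11 of 24 cases. These genes are switched on together by the SREBP transcription factors when sterol in the endoplasmic reticulum is low, with NF-Y binding at CCAAT boxes beside them. The 11 called of 24 tested stand beside 1.5% of all genes called higher, and 24 of 24 values were positive with a median of 0.56. With the GC and length trend removed 8 were called and the median was 0.52. Without 1 library, 2 (without the first H1 KD1 library) to 4 were called. The H1 contrast called 4 members and the MEL1 contrast 9, all higher, beside 0.729% and 5.73% of all genes. The list medians were 0.59 and 0.62. The fit to the H1 libraries by themselves called 7.

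The 6 called members with a RefSeq promoter window (GRCh38.p14, the 250 bases before the annotated start) that holds a CCAAT are shown because the group moved together. Each line gives the CCAAT nearest the start with 10 bases on each side, 5′ to 3′ in the direction of the gene; capitals mark CCAAT or, where it lies on the other strand, ATTGG.
INSIG1, chr7:155297698-155297722, plus strand: ccggcctcccATTGGttgcggccgc
MVD, chr16:88663162-88663186, minus strand: ctcgcacgggCCAATcctgtggtag
MSMO1, chr4:165327625-165327649, plus strand: ctctcgcaggCCAATaacgacagga
EBP, chrX:48521768-48521792, plus strand: tcgcttcaccATTGGctcgctccgt
DHCR7, chr11:71448427-71448451, minus strand: tccgcctccgATTGGcaggcaatcg
LSS, chr21:46228910-46228934, minus strand: cggcgctctgATTGGttgcgtgggc
Windows were found for 18 of the 24 list members. CCAAT, searched on both strands, was in 15 of these 18 (83.3%), in 6 of the 7 called members with a window (85.7%) and in 32% of all 35116 RefSeq windows. The letters TCACNCCAC, a form of the sterol element also searched on both strands, were in 1 of the 18, SREBF2, in 0 of the 7 called members and in 0.883% of all windows. Neither motif contains the other. These matches describe the letters of the windows and not binding.

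INSIG1, which holds the SREBP escort protein in the endoplasmic reticulum, measured 59.9 and 79.3 against 36.0 CPM in MEL1 and 245 and 135 against 48.1 and 74.6 CPM in H1. The groups did not overlap, but the H1 KD1 libraries were far apart (1.36, SE 0.28, adjusted p = 0.0479, and 0.0529 with the GC and length trend removed). INSIG1 was called in 0 of the 7 fits that left out a library. MVD, the mevalonate diphosphate decarboxylase, measured 48.2 and 53.1 against 27.6 CPM in MEL1 and 61.9 and 48.4 against 26.0 and 26.4 CPM in H1 (0.99, SE 0.12, adjusted p = 0.00754). Called members also included 6 enzymes from squalene onward, SQLE, LSS, CYP51A1, MSMO1, EBP and DHCR7, with log2 fold changes of 0.55 (LSS) to 0.83 (MSMO1). SREBF2, the SREBP gene of the pathway, was at 0.35 (SE 0.11, adjusted p = 0.0984). Among the 11 called members, the first H1 KD1 library exceeded the second for 10 and the first MEL1 KD1 library exceeded the second for 3. The H1 SCR mean was above the KD2 mean for 10 of the 11 and below the KD1 mean for 9. In MEL1 SCR was above KD2 for 6 of the 11 and below the KD1 mean for all 11. Over all 24 members the H1 SCR mean was above the KD2 mean for 22 and below the KD1 mean for 12.

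Of 28 glycolytic and hypoxia-induced genes tested 4 were called over both lines, all higher with KD1, beside 1.5% of all genes. All 28 values over both lines and in H1 were positive, with medians of 0.60 and 0.72, and in MEL1 23 were positive and 5 negative with a median of 0.49. ENO2, the neuronal enolase, measured 471 and 512 CPM with KD1 and 270 CPM with KD2 in MEL1 and 494 and 441 against 188 and 303 CPM in H1 (0.90, SE 0.17, adjusted p = 0.031). BNIP3L, a mitophagy receptor induced by low oxygen, measured 112 and 111 against 66.8 CPM in MEL1 and 176 and 159 against 94.8 and 117 CPM in H1 (0.69, SE 0.11, adjusted p = 0.0214). ALDOC, the brain aldolase, was at 1.24 (adjusted p = 0.0489, and 0.0784 with the GC and length trend removed) and PGAM1, a phosphoglycerate mutase, at 0.74 (0.0469). The first H1 KD1 library was above the second for all 28 members, and the first MEL1 KD1 library was above the second for 2 of them, so that this group also varied between libraries of one hairpin. Leaving out 1 library gave 0 calls in the list in 4 of the 7 fits and 7 without the second H1 KD2 library. SCR means were below KD1 means for all 28 members in H1 and in MEL1, and above KD2 for 4 in H1 and 7 in MEL1.

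Stress genes had 4 of 22 members called, all higher with KD1, beside 1.5% of all genes. DDIT3, the transcription factor CHOP of the integrated stress response, measured 32.1 and 39.2 against 9.50 CPM in MEL1 and 28.2 and 27.4 against 10.1 and 16.0 CPM in H1 (1.40, SE 0.22, adjusted p = 0.0214). Here the H1 SCR libraries, at 30.3 and 35.9 CPM, were with KD1 and above KD2. The H1 KD3 libraries were far apart, at 29.5 and 11.4 CPM. TRIB3, a pseudokinase induced by CHOP, was at 1.40 (adjusted p = 0.0356) and HMOX1, heme oxygenase 1, at 0.91 (0.0261). HSPA1A, an inducible HSP70, measured 44.7 and 53.9 against 9.05 CPM in MEL1 and was listed at 0 in all 8 H1 libraries; its counts are uncertain because HSPA1B is nearly identical, and its call over both lines (adjusted p = 0.0162) is a MEL1 result. ATF4, the upstream factor of this response, was at 0.35 (adjusted p = 0.167). Over all 22 members the H1 SCR mean was above the KD2 mean for 20 and below the KD1 mean for 5. In MEL1 SCR was above KD2 for 16 of the 22 and below the KD1 mean for 14. The H1 KD3 libraries also differed for TRIB3 (29.1 and 10.6 CPM) and HMOX1 (10 and 4.99 CPM). Calls in the list ranged from 1 to 6 without 1 library, with 1 without the first MEL1 KD1, either H1 KD1 or the first H1 KD2 library and 2 without the MEL1 KD2 library.

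The interferon list, which also holds the sensors of double-stranded RNA, had 2 of 24 members called, both higher with KD1 beside 1.5% of all genes, and a median of 0.06. ISG15, a ubiquitin-like modifier induced by interferon, measured 42.0 and 63.3 against 9.23 CPM in MEL1 and 48.2 and 46.4 against 15.5 and 22.2 CPM in H1. SCR held 8.86 CPM in MEL1 and 23.3 and 17.2 CPM in H1, near KD2 (1.77, SE 0.29, adjusted p = 0.0277). IFIT2, which binds foreign RNA, measured 2.73 and 3.69 against 0.291 CPM in MEL1 and 1.27 and 1.05 against 0.315 and 0.161 CPM in H1 (2.73, SE 0.41, adjusted p = 0.0164). Values of other members differed in sign. IFIT3, a relative of IFIT2, was at 1.37 (adjusted p = 0.0646) and the antiviral GTPase MX1 at 0.55 (0.213), both with KD1 above KD2 in each line. IFIT1 was higher with KD1 in MEL1 (1.30, adjusted p = 0.0129) and had -0.66 in H1 (0.13), with an adjusted p of 0.0181 for the difference. The RNA sensors RIGI and IFIH1 were at -0.26 (0.414) and -0.40 (0.344). In MEL1 4 members were called, all higher, beside 5.73% of all genes. Leaving out 1 library gave 0 to 3 calls over both lines, with ISG15 called in 3 of the 7 fits and IFIT2 in 6.

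The remaining lists held few calls over both lines, where 1.5% of all genes were called higher and 1.55% lower. Ribosomal protein genes had 0 of 36 called, yet all 36 values were positive with a median of 0.54 (0.43 with the GC and length trend removed). In MEL1 15 of them were called, all higher, beside 5.73% of all genes. The 13 genes of the mitochondrial genome were all negative with a median of -0.26 and 0 calls. Of 25 mitosis genes and 22 p53 targets 0 were called, with medians of -0.11 and -0.02. In the pluripotency list UTF1 (1.60, adjusted p = 0.0242) and KLF4 (1.53, 0.0149) were called of 19 tested, and in the forebrain list 2 of 20, FEZF2 (1.09, 0.0421) among them, all higher with KD1. NEFL, a neurofilament subunit, was the 1 called neuronal gene of 24 (1.18, 0.018). In the neural crest list 3 of 16 were called, all lower, TFAP2B (-1.09, 0.0252) and the receptor KIT (-0.72, 0.0274) among them. MEOX1, FOXC1 (-1.48, 0.0306), the angiopoietin receptor TEK (-1.32, 0.0388) and GATA2 (-1.18, 0.0352) were called of 23 mesodermal and vascular genes, all lower, while DES (1.30, 0.0319) and ACTC1 (1.06, 0.0243), filament proteins of muscle, were called of 10 muscle genes, both higher. Of signalling genes, the Wnt antagonist FRZB (-0.59, 0.0319), the Notch-modifying enzyme LFNG (-0.95, 0.0325) and the ligand FGF17 (-1.65, 0.0236) were lower, and the BMP pseudoreceptor BAMBI (0.90, 0.031) and the immediate early receptor NR4A1 (0.996, 0.0319) were higher. Of these, FEZF2, TEK, DES and NR4A1 lost their call with the GC and length trend removed (adjusted p 0.0573, 0.0505, 0.0526 and 0.0562). Without 1 library the neural crest list had 0 to 4 calls, the mesodermal and vascular list 1 to 3, and the pluripotency list and the forebrain list 0 to 2. The muscle list and the neuronal list had 0 to 1. FOXC1 and DES were called in 0 of the 7 fits that left out a library, and TEK and GATA2 in 1. Endodermal genes, collagens and imprinted genes had 0 calls, and of 27 HOX genes 0 passed the filter on low counts.

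**Figure D4:**
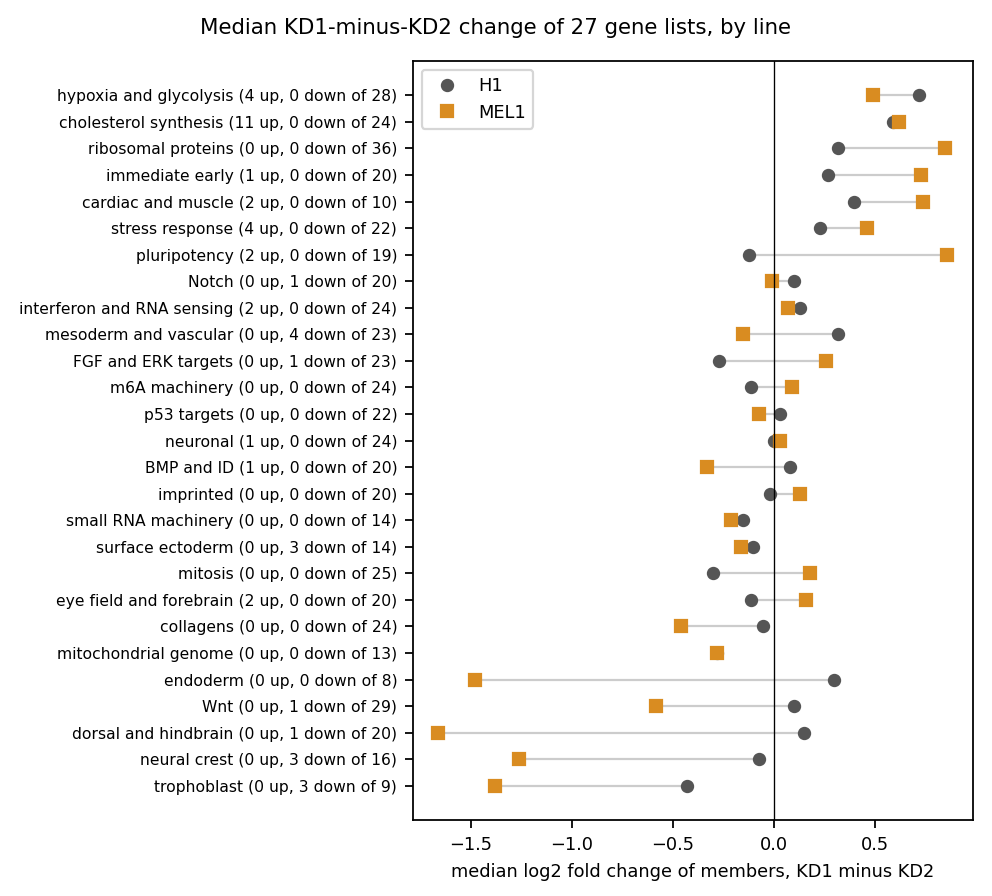
Median log2 fold change of KD1 minus KD2 over the members of each of 27 gene lists (y axis, with the calls over both lines in brackets), in H1 (circles) and MEL1 (squares). Cholesterol and hypoxia lists are positive in both lines, while the dorsal and hindbrain list (-1.66 in MEL1, 0.15 in H1) and the neural crest list (-1.26 and -0.07) lie far apart in the lines.

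The hairpin difference itself was unequal between the lines for a set of neural border and Wnt genes. The test of the difference between the lines called 9 of the genes called over both lines. The additive fit over both lines counts such a difference as spread, so a small overlap is in part built in. In all, the test of the difference called 423 genes (1.99%), 256 more negative in MEL1 (1.2%) and 167 more positive (0.786%). This test rests on the single MEL1 KD2 library and gives no value without it, and leaving out other libraries gave 75 to 1128 calls: 75 without the second H1 KD1 library, 77 without the first, 188 without the first H1 KD2 library, 267 without the second MEL1 KD1 library and 1128 without the first. Of 20 dorsal and hindbrain genes 8 were more negative in MEL1 (PAX3, PAX7, LMX1A, MSX1, MSX2, WNT1, EN2 and PAX2) and 0 more positive. EN2 was near the floor in MEL1, at 0 CPM in both KD1 libraries and 0.268 CPM with KD2, so its fitted value is no measure of size. Of 16 neural crest genes 7 were more negative (SOX10, SOX9, FOXD3, TFAP2A, TFAP2C, SNAI2 and ETS1) and 0 more positive. Of 29 Wnt genes 8 were more negative and 1, SFRP2, more positive.

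WNT1 (ENSG00000125084, chromosome 12 at 48978453 to 48981676), the ligand of the dorsal midline and midbrain border, measured 1.32 and 0.915 CPM with KD1 and 20.5 CPM with KD2 in MEL1. In H1 the order was the reverse, with 1.55 and 1.26 CPM against 0.231 and 0.482 CPM. The log2 fold change was -4.19 in MEL1 (adjusted p = 0.000361) and 1.98 in H1 (adjusted p = 0.0346), and the difference between them was -6.17 (SE 0.53, adjusted p = 0.000643). SP5, a direct target of Wnt signalling, measured 11 and 12.3 against 64.2 CPM in MEL1 and 8.54 and 8.48 against 4.2 and 4.16 CPM in H1 (adjusted p of the difference 0.000257). DKK1, a secreted Wnt antagonist that Wnt induces, had -2.92 in MEL1 and 1.28 in H1 (0.00338). AXIN2 and LEF1, which Wnt signalling also induces, were lower with KD1 in MEL1 (-1.40 and -1.45) and near 0 in H1 (0.06 and -0.05), with adjusted p of the difference of 0.016 and 0.0201.

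The dorsal factor PAX3 measured 37.3 and 31.6 against 129 CPM in MEL1 and 82.0 and 75.1 against 55.5 and 57.8 CPM in H1 (adjusted p of the difference 0.0005). It was thus lower with KD1 than with KD2 in MEL1 and higher in H1, where KD3 was lower again at 34.8 and 42.5 CPM. LMX1A, a roof plate factor, had -2.90 in MEL1 and 1.14 in H1 (0.00324), and FOXD3, an early neural crest factor, -1.96 and 1.35 (0.00469). In MEL1 the SCR library lay between the hairpins for WNT1 (3.87 CPM), SP5 (21.2 CPM), PAX3 (46.3 CPM) and FOXD3 (17.6 CPM). The H1 SCR libraries held 99.7 and 84.3 CPM of PAX3, 7.84 and 6.05 CPM of LMX1A and 5.755 and 3.145 CPM of FOXD3. For each of these genes both were above every KD1 and KD2 library of H1. WNT1 was at 1.80 and 0.696 CPM in H1 SCR, with the H1 KD1 libraries between.

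Of 19 pluripotency genes 4 were more positive in MEL1 by this test, beside 0.786% of all genes, and 0 more negative. In MEL1 itself 8 of the 19 were called, all higher with KD1, beside 5.73% of all genes, and 2, NODAL (-0.93) and LEFTY2 (-0.78), had negative values. POU5F1, the core factor OCT4, measured 805 and 904 CPM with KD1 and 238 CPM with KD2 in MEL1, around an SCR level of 511 CPM. In H1 it measured 25.4 and 24.9 CPM against 36.0 and 21.8 CPM, with overlap (adjusted p of the difference 0.0215). DNMT3B, a DNA methyltransferase of early cells, had 1.53 in MEL1 and -0.12 in H1 (0.00931), and DPPA4 and ZFP42 were also more positive in MEL1 (0.0151 and 0.0273). The 5 pluripotency markers summed to 3378.3 and 3839.3 CPM with KD1 and 2138.1 CPM with KD2 in MEL1, beside 1140.7 to 1345.9 CPM in the 4 H1 libraries, and the 5 neural crest markers to 298.0 and 263.0 against 476.8 CPM in MEL1, beside 179.8 to 221.4 CPM in H1. The part of the stage or mix of cells in the MEL1 KD2 library was not tested.

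**Figure D5:**
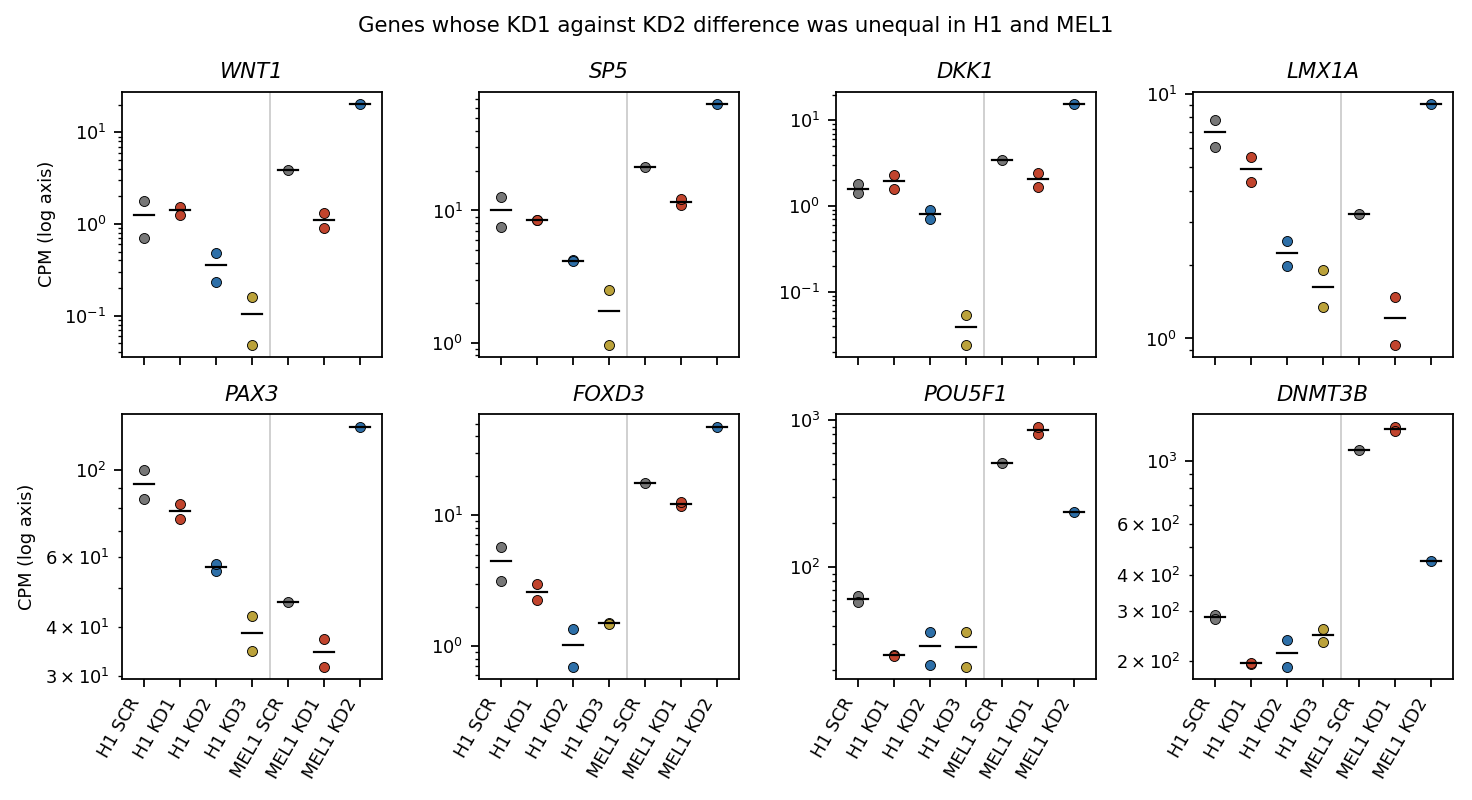
Level of 8 genes whose KD1 against KD2 difference was unequal in the lines, in every library (y axis, CPM on a log axis; x axis, line and hairpin; bars are group means). In MEL1 the single KD2 library is the highest of 4 for WNT1, SP5, DKK1, LMX1A, PAX3 and FOXD3 and the lowest for POU5F1 and DNMT3B.

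The place of the SCR libraries was also counted over all called genes. Among the 318 genes higher with KD1, the SCR mean lay nearer KD2 for 244 in H1 and 231 in MEL1. The median log2 difference from SCR was 0.67 for KD1 and -0.08 for KD2 in H1, and 0.80 and -0.17 in MEL1. Among the 330 genes lower with KD1, SCR lay nearer KD2 for 194 in H1 and 201 in MEL1. Their median difference from SCR was -0.47 for KD1 and 0.28 for KD2 in H1, and -0.68 and 0.45 in MEL1, so that here KD2 was displaced from SCR as well. SCR lay between the hairpins for 164 and 210 of the genes that rose and fell in H1 and for 192 and 222 in MEL1. The MEL1 SCR library is shallower than the rest, at 15963241 counts, and as the genes were chosen for a difference between KD1 and KD2 these positions are a description.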

How the data were processed

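Stranded total RNA sequencing gave 12 libraries, and the 7 with KD1 or KD2 were compared. Estimated counts for each Ensembl identifier were deposited, made with fastp and kallisto per the submitters' processing notes; versions, annotation, build and strand setting are not given in the sources used here. Such counts can divide reads among paralogs, pseudogenes and overlapping or antisense genes, whose values are uncertain. Of 65969 identifiers 41981 had a symbol in a separate name table; 2.17% to 2.84% of a library's counts fell on identifiers missing from it. GENCODE 29 supplied positions, transcript lengths and GC content.

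Estimated counts were rounded, filtered with filterByExpr by hairpin and scaled by TMM. Of the 21253 genes tested, 1057 identifiers had counts identical to another's. Tests were robust quasi-likelihood F-tests in edgeR 4.0.16 (limma 3.58.1, R 4.3.3) with Benjamini-Hochberg adjustment over all genes and a call at 0.05. The comparison over both lines fitted line and hairpin additively; a fit of the 4 group means gave each line and their difference. Each SE was derived from the fold change and its F statistic. SCR and KD3 CPM are on the same scale. Scripts were tested on simulated data.

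Alternatives were other scalings and filters, DESeq2 1.42.0, a non-robust fit, identical identifiers collapsed, all 12 libraries, group means, H1 alone, each library left out, and removal of a smooth trend on transcript GC and length (spline df 5 and 4, respectively; available for 91.7% of genes). The members and gene lists were chosen with earlier results of these data known. Named genes are METTL14, the 10 largest rises and falls among called genes of at least 1 CPM whose hairpin groups do not overlap in either line, up to 4 called members per list and direction, and the 5 largest differences between lines in each direction; other genes were named after their values were seen. Some genes that this rule selects are not reported here. No set test was run. The labels give no replicate numbers.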

Additional observations from a re-analysis of the deposited data

Results flagged for a closer look

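The KD1 against KD2 difference was unequal in MEL1 and H1 for 423 genes by the test of the difference itself. The values below are the MEL1 log2 fold change minus the H1 one, and each rests on the single MEL1 KD2 library. Where a group is at or near 0 the fitted value depends on the prior count and is no measure of size.

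WNT1 had -6.17. CDH9, a cadherin, had -4.39: it measured 4.41 and 4.66 CPM with KD1 and 26.3 CPM with KD2 in MEL1, and 2.36 and 1.45 against 0.672 and 0.368 CPM in H1. ETV3L, an ETS factor, had -4.98, with 0.0516 and 0.148 against 1.56 CPM in MEL1 and 1.85 and 1.88 against 0.525 and 1.33 CPM in H1. LY6E (-9.29) and ZNF879 (-6.61) were at 0 in the MEL1 SCR and KD1 libraries and at 2.03 and 0.425 CPM in the MEL1 KD2 library, while every H1 library held 8.67 to 22.2 CPM of LY6E and 6.69 to 12.1 CPM of ZNF879.

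In the other direction, ZNF229 (6.91) measured 5.86 and 4.99 CPM with KD1 and 0.0447 CPM with KD2 in MEL1, and 10.1 to 15.1 CPM in all H1 libraries. EMX1 (6.98), a homeobox gene of the cortex, was at 0 with KD2 and at 0.439 and 0.354 CPM with KD1 in MEL1, and at 10.7 to 18.9 CPM in H1. IDO1 (5.22), a tryptophan-degrading enzyme, measured 30.2 and 43.6 against 4.38 CPM in MEL1 and 0.304 and 0.191 against 1.49 and 0.689 CPM in H1. SYTL3 (5.50) differed in H1: it measured 34.8 and 19.7 CPM in the H1 KD2 libraries and 0.191 to 1.16 CPM in the other 10. UPK3BL1 (6.15) measured 3.40 and 1.52 CPM in H1 KD2, 0.0253 and 0 CPM in H1 KD1, 0 and 2.26 CPM in H1 SCR and, in MEL1, 14.7 CPM with KD2 and 6.71 and 6.29 CPM with KD1; its counts are uncertain because near-identical copies lie beside it.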

How the results depend on the processing

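Depth was even over the 7 libraries; the limits are the number of libraries and the lone MEL1 KD2 library. No paired analysis was possible because the labels carry no replicate numbers. The 648 calls over both lines became 2771 without the filter on low counts, 2644 with all 12 libraries, 3124 by group means and 2249 by DESeq2, and 53 to 572 without 1 library. The 383 calls in H1 became 1858 without the filter, 212 in the non-robust fit, 198 with all 12 libraries and 1332 by DESeq2, and 18 to 669 without 1 library (18 without the first and 29 without the second H1 KD1 library). The 2447 calls in MEL1 became 4183 without the filter and 1198 to 3786 without 1 library. The 423 genes that differed between the lines became 1593 without the filter, 250 in the non-robust fit, 656 with the GC and length trend removed and 1221 by DESeq2, and 75 to 1128 without 1 library. The MEL1 contrast and the difference between lines give no value without the MEL1 KD2 library. METTL14 ranged from -0.542 to -0.381 without 1 library and was not called under any alternative. For 57 named genes, 829 of 1082 alternative values kept direction and call, 251 kept the direction and lost the call, and 2 changed: HSPA1A, at 0 in H1, had a log2 fold change of 0.000 in the H1 libraries by themselves and without the MEL1 KD2 library, and ranged up to 2.548 without another library. The causes were not tested.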
